A study of Mus musculus with 6 samples.

Results

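The genes described here are the Eph receptors, the ephrins, the semaphorins of classes 3 to 7, the plexins and the neuropilins, which cells use to sense and sort one another on contact and to steer migration. Members were taken by gene symbol, and each was represented by its brightest probeset among those annotated to 1 gene. Of 53 such genes in the RefSeq table, 52 were measured among the 19938 genes of the array, and Ephb2 was not analysed here. They comprised 9 EphA and 4 EphB receptors, 8 ephrins, 20 semaphorins, 9 plexins and 2 neuropilins.

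The samples were 6 lines of mouse iPS cells, that is, induced pluripotent stem cells, with 1 founding colony and 1 Affymetrix whole-transcript array for each line. All 6 were derived from embryonic fibroblasts of the OG2 strain, which carry a fluorescent reporter under Oct4 control, by retroviral Sox2, Klf4, Oct4 and c-Myc. shECAD clones 4, 8 and 9 also received a short hairpin RNA (shRNA) against E-cadherin (Cdh1), the main cell adhesion molecule of pluripotent and epithelial cells, and control clones 2, 3 and 4 received one against luciferase, which mouse cells lack. Infected cells were moved to feeder cells on day 6, colonies were picked on day 14, the lines were kept on feeders, and feeders were removed before RNA extraction. Each group is therefore 3 single-colony lines (n = 3 throughout). Whether the lines go back to separate infections is not in the labels; the p-values then cover only the spread among these lines, and the number of arrays limits the precision.

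Ephrins are membrane-bound ligands, held by a lipid anchor (ephrin-A) or spanning the membrane (ephrin-B), and they bind Eph receptor tyrosine kinases on the neighbouring cell, with signals running into both cells. Semaphorins are secreted (class 3 in vertebrates) or membrane-bound ligands that act through plexins, and most class 3 members need a neuropilin as the binding subunit of the receptor. Both systems often make cells retract or separate, and they shape tissue boundaries, axon paths and blood vessels. In epithelial cells Eph receptors lie at cadherin-based contacts.

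Cdh1, the target of the shRNA, read 6.75, 6.92 and 7.81 on the log2 scale in shECAD clones 4, 8 and 9, against 9.18, 9.60 and 9.07 in control clones 2, 3 and 4. The groups did not overlap, and limma put the log2 fold change at -2.13 ± 0.27 (SE, adjusted p = 0.00683). The exact permutation test (two-sided, 20 labellings) returned p = 0.1, which is the lowest value possible for 3 clones against 3. Array medians ran from 5.11 to 5.30. The 11 pluripotency markers averaged 9.30 to 9.67 in the shECAD clones and 9.74 to 9.94 in the control clones. Of these markers 0 passed the limma test, while 5 had an unadjusted p below 0.05, as did 3595 of all 19938 genes. Of 19 measured fibroblast and feeder cell markers, 12 rose and 0 fell (63.2%, against 3.12% of all genes passing). Their mean log2 level was 7.17, 7.47 and 7.18 in shECAD clones 4, 8 and 9 and 6.51, 6.10 and 5.46 in control clones 2, 3 and 4. In bulk RNA, more cells of a type and more RNA per cell cannot be told apart.

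Among the 52 guidance genes, 6 rose and 1 fell in the shECAD clones. The genes that rose were the neuropilins Nrp1 and Nrp2, the semaphorins Sema3e and Sema6a, and the ephrins Efna5 and Efnb1, and the one that fell was the semaphorin Sema5b. A gene was called changed at an adjusted p below 0.05 in limma, a linear model with shared variance fitted to all 19938 genes. Called members made up 13.5% of the 52, against 3.12% of all genes, of which 1.9% were higher and 1.23% lower. Over all genes the calls were 378 higher and 245 lower, and with each array centred on its median they were 303 higher and 377 lower. The median log2 fold change of the members was 0.20, against 0.025 over all genes, and 41 of the 52 had a positive one, as did 10708 of all 19938 genes. Median centring moved these medians to 0.11 and -0.062, and quantile normalization to 0.12 and -0.0059. All 7 calls were lost without sharing of the variance between genes, and all were lost with the averaged fibroblast and feeder markers in the model, called the covariate from here on. The shECAD values all lay above the control values in 16 members (11.1% of all genes) and all lay below them in 5 (12.5% of all genes), so that the groups were apart in 21 of 52 members (40.4%), against 23.6% of all genes. No EphA, EphB or plexin gene was called, and 3 EphA receptors, 0 EphB receptors and 3 plexins had an unadjusted p below 0.05. Over all genes 3595 of 19938 had one.

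**Figure D1:**
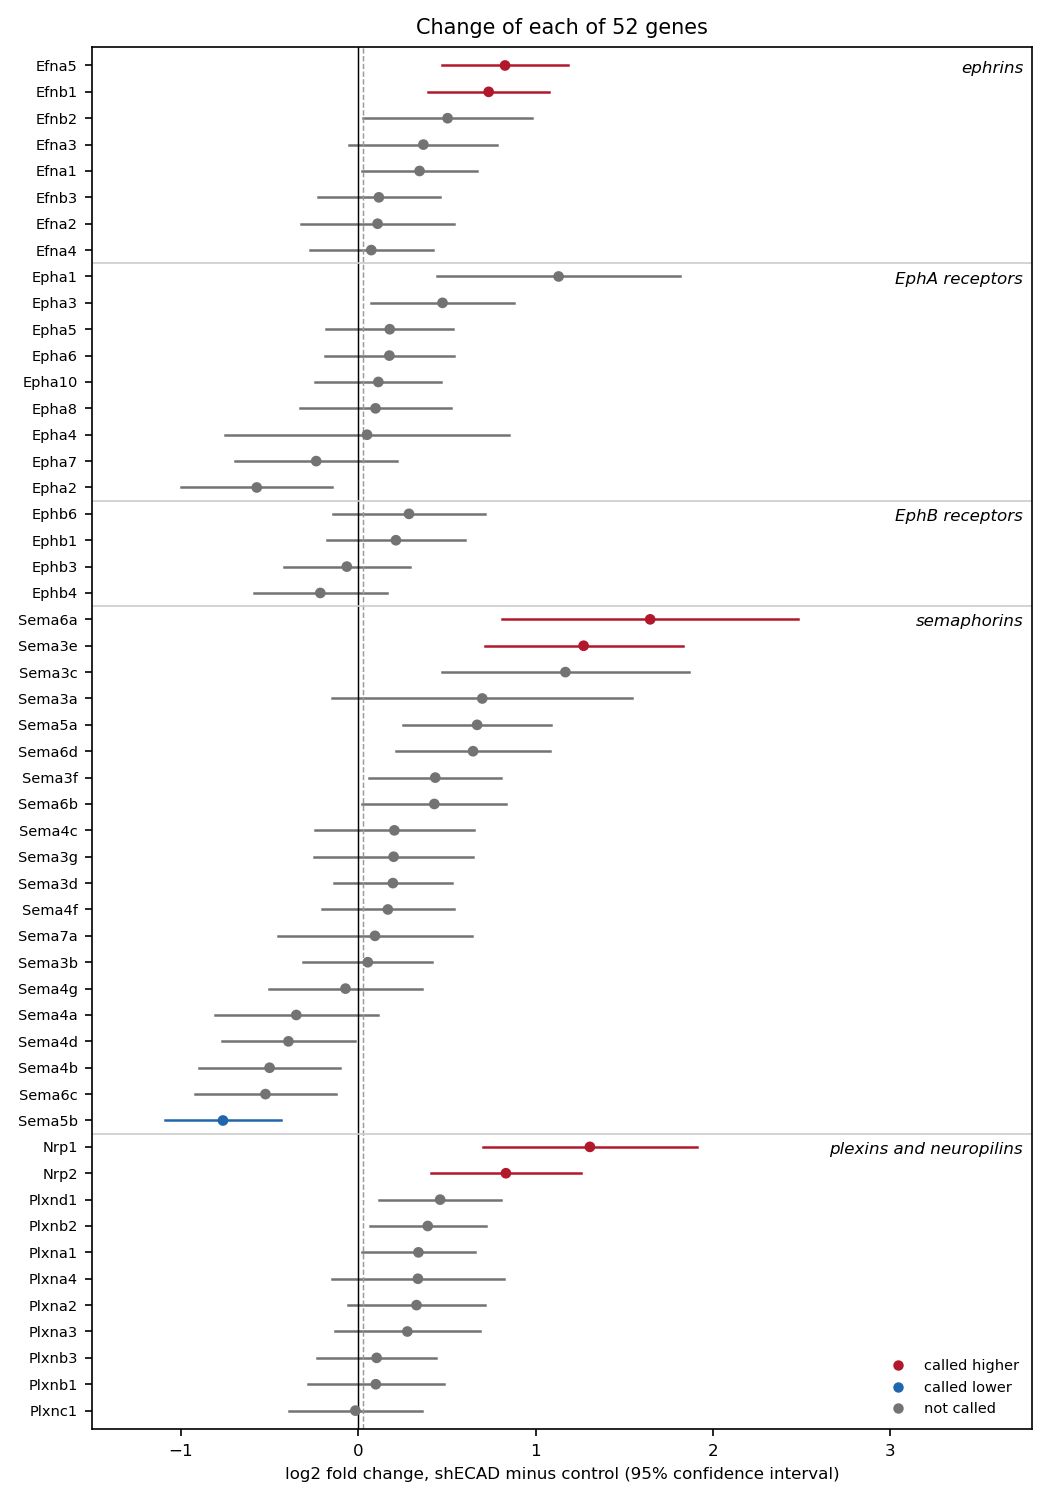
Log2 fold change of each of the 52 genes (rows, grouped by role), shECAD minus control, with its 95% confidence interval. The 6 genes called higher (red) lie between 0.74 and 1.65, Sema5b, called lower (blue), lies at -0.76, and the dashed line marks the median of all genes at 0.025.

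The neuropilins were both higher in the shECAD clones. Nrp1, which binds class 3 semaphorins such as Sema3a and also vascular endothelial growth factor, read 6.09, 6.57 and 6.01 in shECAD clones 4, 8 and 9, against 5.46, 4.99 and 4.31 in control clones 2, 3 and 4. Each shECAD clone lay above each control clone, and the control clones spread more widely, with clone 4 lowest. The mean was 6.23 ± 0.30 (SD) in shECAD and 4.92 ± 0.58 in control, a 2.47-fold rise (1.31 ± 0.27 SE on the log2 scale, limma adjusted p = 0.0332). Nrp2, the preferred partner of Sema3f, read 5.51, 6.20 and 5.80 in shECAD clones 4, 8 and 9, against 5.14, 4.89 and 4.998 in control clones 2, 3 and 4. Here the groups again did not overlap, and shECAD clone 8 was highest, as it was for Nrp1. Nrp2 rose 1.78-fold (0.83 ± 0.19, limma adjusted p = 0.0465). With the fibroblast and feeder covariate Nrp1 turned to -0.13, and Nrp2 lost its call after median centring (limma adjusted p = 0.0636) and quantile normalization (0.0679).

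The promoters of both neuropilins are shown because these receptor subunits rose together. They are the 250 bases before the annotated start, from RefSeq (GRCm38.p6), 5′ to 3′, with matches to the GC box in capitals. Nrp1 lies at chr8:128358823-128359072 and Nrp2 at chr1:62703067-62703316, both on the + strand.
Nrp1: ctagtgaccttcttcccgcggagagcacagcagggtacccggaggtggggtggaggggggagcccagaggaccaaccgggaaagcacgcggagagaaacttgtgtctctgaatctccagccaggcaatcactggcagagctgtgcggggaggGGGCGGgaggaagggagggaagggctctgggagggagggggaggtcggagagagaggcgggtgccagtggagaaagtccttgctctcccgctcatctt
Nrp2: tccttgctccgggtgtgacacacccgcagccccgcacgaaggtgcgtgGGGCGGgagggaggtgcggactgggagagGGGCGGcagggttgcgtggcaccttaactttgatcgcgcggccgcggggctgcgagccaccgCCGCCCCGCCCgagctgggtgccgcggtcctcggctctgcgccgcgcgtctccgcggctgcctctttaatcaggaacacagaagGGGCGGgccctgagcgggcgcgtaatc
Each motif was searched on both strands. The GC box was spelled GGGCGG and the TATA box TATAAA. For the E-box that Snail and Zeb factors bind the letters were CACCTG. For TEAD factors they were GGAATG, and for AP-1 they were TGANTCA, a palindrome. Nrp1 held 1 GC box and Nrp2 held 5, of which 1 pair overlapped, and the other 4 motifs matched neither window. Over 32851 promoter windows of the same length, 32.7% held a GC box, 12.4% a TATA box, 17.2% the E-box, 12.6% the TEAD letters and 6.7% the AP-1 letters. The table held 60 windows for 46 of the 52 members, and 76.7% of these had a GC box, 1.7% a TATA box, 11.7% the E-box, 11.7% the TEAD letters and 5% the AP-1 letters. The median G+C content was 64.2% in the members' windows and 52.4% in all windows. A match is a stretch of letters, and binding was not measured.

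Plexins, the signalling subunits, showed small differences, and 8 of 9 had a positive log2 fold change as deposited, as did 10708 of all 19938 genes. Plxnb3 turned negative after quantile normalization (-0.016) and Plxna4 with the covariate (-0.072). Plxnd1, the receptor that binds Sema3e without a neuropilin, read 5.24, 5.25 and 5.55 in shECAD clones 4, 8 and 9, against 4.96, 4.85 and 4.85 in control clones 2, 3 and 4. Its groups did not overlap, but the log2 fold change of 0.46 ± 0.15 (SE) did not pass the limma test (adjusted p = 0.143, 95% interval 0.12 to 0.80). Plxnb2, a receptor of class 4 semaphorins, and Plxna1, which pairs with neuropilins, were also apart, at 0.39 and 0.34 on the log2 scale (adjusted p in limma 0.195 and 0.244). Plxna1 varied least among the plexins, with 8.21 to 8.35 in the shECAD clones and 7.91 to 8.00 in the control clones. In the remaining plexins the groups overlapped, so that 33.3% of the 9 plexins were apart, against 23.6% of all genes. Plxna2, Plxna3 and Plxna4 had log2 fold changes of 0.33, 0.28 and 0.34, Plxnb1 and Plxnb3 of 0.099 and 0.10, and Plxnc1, the receptor of Sema7a, of -0.016.

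Class 3 semaphorins, the secreted ligands, were called in 1 of 7 genes (14.3%, against 3.12% of all genes). Each had a positive log2 fold change as deposited, from 0.054 to 1.27, while 10708 of all 19938 genes had a positive one. Sema3b turned negative after median centring (-0.034) and quantile normalization (-0.061), and Sema3a and Sema3c did so with the covariate (-1.47 and -0.48). Sema3e read 6.74, 6.13 and 7.06 in shECAD clones 4, 8 and 9, against 4.98, 5.52 and 5.63 in control clones 2, 3 and 4. The groups were apart, with shECAD clone 9 highest and control clone 2 lowest. Sema3e rose 2.41-fold (1.27 ± 0.25 SE on the log2 scale, limma adjusted p = 0.0295). Sema3c, a guidance cue for neural crest cells of the heart, read 5.71, 6.41 and 6.12 in shECAD clones 4, 8 and 9, against 5.41, 5.23 and 4.10 in control clones 2, 3 and 4. These groups did not overlap either, but control clone 4 lay far below the other control clones, and the log2 fold change of 1.17 ± 0.31 (SE) had a limma adjusted p of 0.0779. Sema3a, the classical growth cone repellent, spread widely among the control clones, with 6.18, 5.17 and 4.30 in clones 2, 3 and 4, against 5.90, 6.25 and 5.59 in shECAD clones 4, 8 and 9. Its log2 fold change was 0.70 ± 0.38 (SE, limma adjusted p = 0.371), and the groups overlapped. Sema3f, a ligand of Nrp2, was apart at 0.43 (limma adjusted p = 0.206), with 6.20 to 6.37 in the shECAD clones and 5.66 to 6.11 in the control clones. Sema3g, Sema3d and Sema3b had log2 fold changes of 0.20, 0.20 and 0.054. Sema3d lay below the 25th percentile of the arrays in both groups.

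The membrane-bound semaphorins of classes 5 and 6 were apart between the groups in all 6 genes, in both directions, against 23.6% of all genes. Only Sema6a and Sema5b were called (25% of 4 class 6 genes and 50% of 2 class 5 genes, against 3.12% of all genes). Sema6a, a ligand of Plxna2 and Plxna4, read 6.22, 6.86 and 7.80 in shECAD clones 4, 8 and 9, against 4.72, 5.87 and 5.35 in control clones 2, 3 and 4. It had the largest log2 fold change of the 52 genes and one of the widest spreads within groups, with shECAD clone 9 highest. The mean was 6.96 ± 0.80 (SD) in shECAD and 5.32 ± 0.57 in control, a 3.13-fold rise (1.65 ± 0.38 SE, limma adjusted p = 0.0462), and the call was lost after quantile normalization (0.0709) and under an intensity-trended, robust prior (0.0702). Sema6d, which binds Plxna1, and Sema6b did not pass, at 0.65 and 0.43 (limma adjusted p = 0.11 and 0.251). Sema6c had a log2 fold change of -0.52 (limma adjusted p = 0.152), with 4.84 to 5.35 in the shECAD clones and 5.41 to 5.76 in the control clones. Sema5b, a transmembrane semaphorin with thrombospondin repeats that limits neurite growth in the mouse retina, read 5.27, 5.07 and 5.14 in shECAD clones 4, 8 and 9, against 6.01, 5.86 and 5.90 in control clones 2, 3 and 4. It had small spreads, 0.10 (SD) in shECAD and 0.078 in control, and fell to 58.9% of the control level (-0.76 ± 0.15 SE, limma adjusted p = 0.0272). Sema5a, its close paralogue, was apart in the other direction, with 5.48, 5.10 and 5.49 in shECAD clones 4, 8 and 9, against 4.94, 4.72 and 4.39 in control clones 2, 3 and 4. Sema5a did not pass the test (0.67 ± 0.19 SE on the log2 scale, limma adjusted p = 0.0877), and the 95% intervals were 0.25 to 1.09 for Sema5a and -1.09 to -0.44 for Sema5b.

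The windows of Sema3e, which rose, and Sema5b, which fell, are printed to show 1 called semaphorin of each direction, and none is shown for Sema6a. Sema3e lies at chr5:14025026-14025275 and Sema5b at chr16:35541112-35541361, both on the + strand of GRCm38.p6 (RefSeq), with GC boxes in capitals.
Sema3e: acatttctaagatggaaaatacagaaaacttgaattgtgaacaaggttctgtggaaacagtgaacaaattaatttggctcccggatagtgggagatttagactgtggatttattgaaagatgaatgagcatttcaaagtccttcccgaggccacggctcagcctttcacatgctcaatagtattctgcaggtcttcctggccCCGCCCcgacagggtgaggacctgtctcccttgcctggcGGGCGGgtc
Sema5b: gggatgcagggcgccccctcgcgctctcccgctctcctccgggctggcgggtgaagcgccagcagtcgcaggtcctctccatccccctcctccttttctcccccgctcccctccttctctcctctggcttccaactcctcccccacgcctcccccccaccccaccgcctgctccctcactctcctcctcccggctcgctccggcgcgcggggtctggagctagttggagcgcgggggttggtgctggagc
Sema3e held 2 GC boxes in a window of 48% G+C, and Sema5b held 0 in a window of 72% G+C. Neither held a match to the other motifs.

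Class 4 semaphorins, which act mainly through B-type plexins, were called in 0 of 6 genes, against 3.12% of all genes. Of these 6, 4 had a negative log2 fold change, as did 9230 of all 19938 genes. With the covariate Sema4g turned positive (0.67). Sema4b read 7.51, 7.57 and 7.06 in shECAD clones 4, 8 and 9, against 7.81, 7.79 and 8.04 in control clones 2, 3 and 4. Sema4d, the ligand of Plxnb1, read 6.39, 5.98 and 6.16 in the shECAD clones and 6.40, 6.74 and 6.57 in the control clones. The groups were apart in both genes, narrowly in Sema4d, and neither passed the limma test (log2 fold change -0.50 and -0.39, adjusted p = 0.17 and 0.251). The second, dimmer probeset of Sema4d gave 0.22 ± 0.20 (SE), opposite in sign. Sema4a and Sema4g had log2 fold changes of -0.35 and -0.07, and Sema4c and Sema4f of 0.20 and 0.17. Sema7a, a lipid-anchored semaphorin, stood at 0.09.

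Of the 8 ephrins, 2 rose and 0 fell (25%, against 3.12% of all genes called). Each had a positive log2 fold change as deposited, while 10708 of all 19938 genes had a positive one. Efna4 turned negative after median centring (-0.015) and Efnb2 with the covariate (-0.14). Efna5, an ephrin-A that orders topographic projections in the brain, read 5.49, 5.68 and 5.74 in shECAD clones 4, 8 and 9, against 4.97, 4.84 and 4.61 in control clones 2, 3 and 4. Efnb1, an X-linked ephrin-B that sets tissue boundaries in the skull, read 6.23, 6.02 and 6.35 in the shECAD clones and 5.40, 5.56 and 5.43 in the control clones. Both were apart, and in both the gap between the groups exceeded the range within either group. Efna5 rose 1.77-fold (0.83 ± 0.16 SE on the log2 scale, limma adjusted p = 0.0278) and Efnb1 rose 1.66-fold (0.74 ± 0.15, limma adjusted p = 0.0339), a call that median centring ended (adjusted p = 0.0501). Efnb2, the arterial ligand of Ephb4, read 6.93, 7.45 and 7.64 in the shECAD clones and 7.05, 6.93 and 6.53 in the control clones. These overlapped, and the log2 fold change of 0.50 ± 0.21 (SE) did not pass (limma adjusted p = 0.249). Efna1, a ligand of Epha2, was apart at 0.35 (limma adjusted p = 0.249), with 4.80 to 4.97 in the shECAD clones and 4.50 to 4.66 in the control clones. Efna3 stood at 0.37, Efnb3 at 0.12, Efna2 at 0.11 and Efna4 at 0.073, all with overlapping groups.

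**Figure D2:**
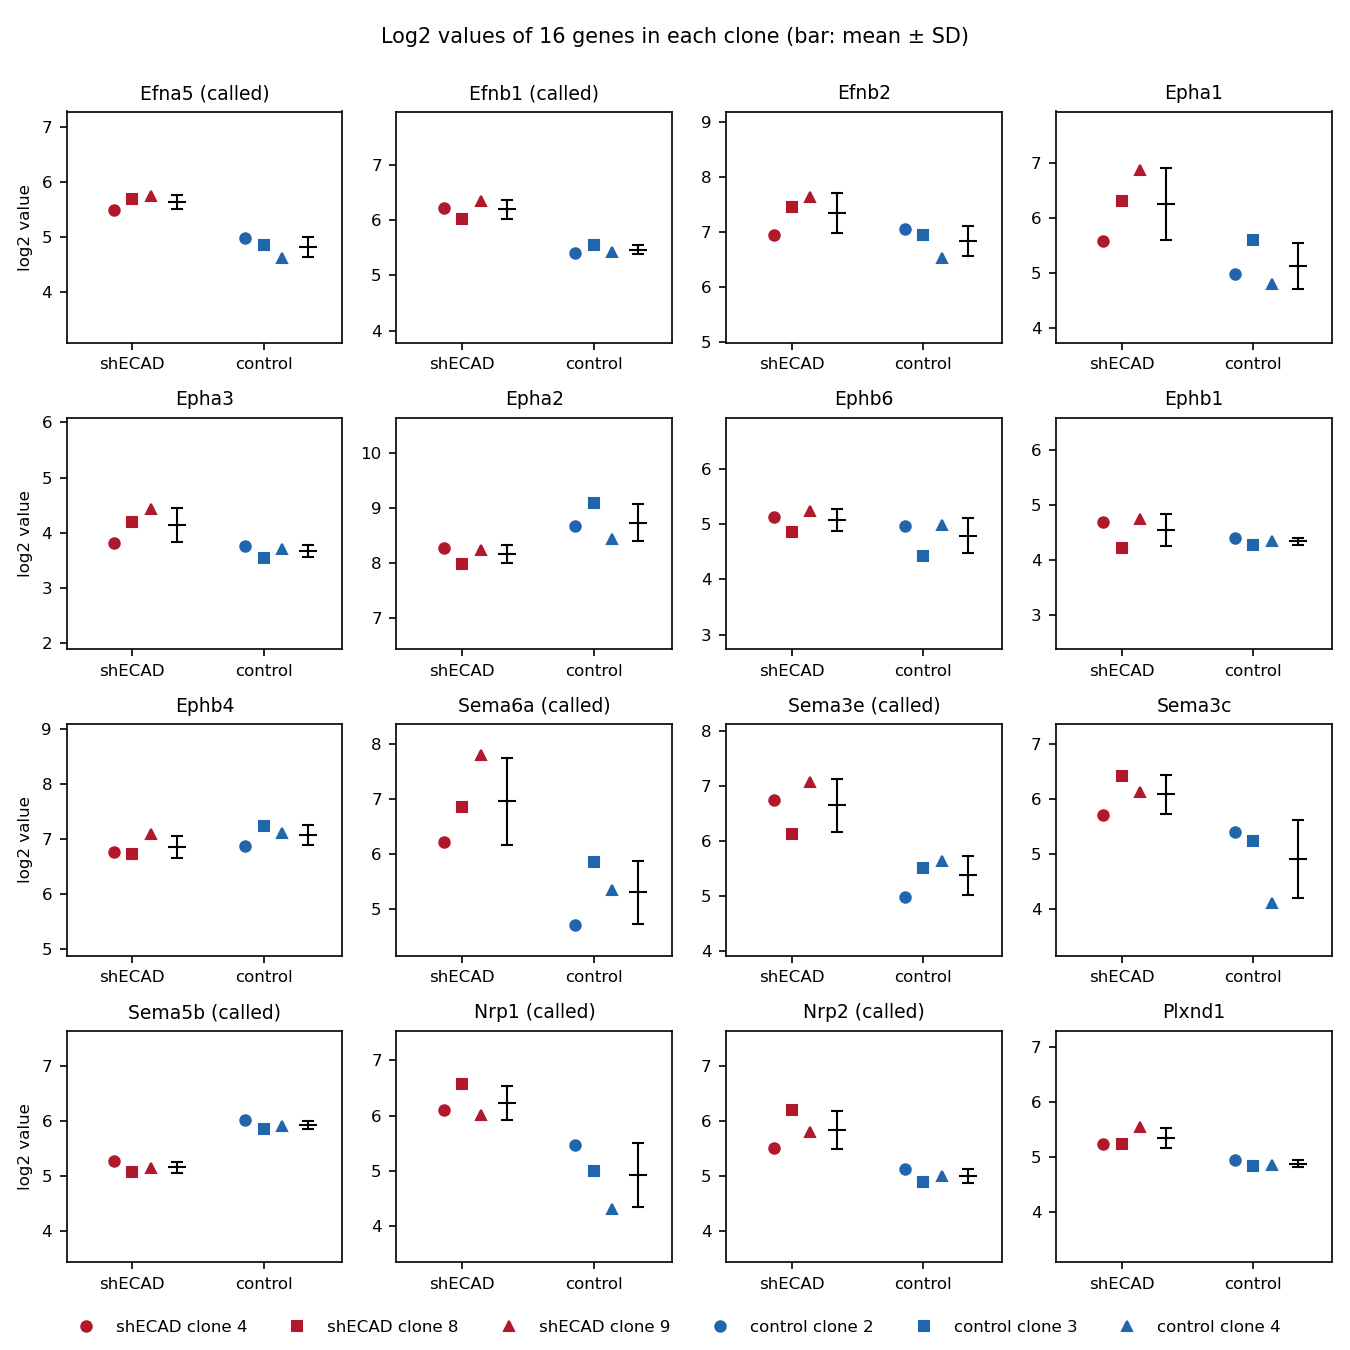
Log2 value of 16 genes in each clone, with shECAD on the left and control on the right of each panel; the bars give the mean ± SD (n = 3) and each vertical axis spans the same range. The 7 called genes show no overlap between groups, the control clones of Nrp1 and Sema3c spread downward to clone 4, and shECAD clone 9 is highest in Sema6a, Sema3e and Epha1.

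Eph receptors, which receive the ephrin signal, were called in 0 of 13 genes, against 3.12% of all genes. Epha2, the main Eph receptor of epithelia and of mouse embryonic stem cells, read 8.27, 7.98 and 8.24 in shECAD clones 4, 8 and 9, against 8.67, 9.09 and 8.43 in control clones 2, 3 and 4. Its groups were apart, and the log2 fold change was -0.57 ± 0.19 (SE, limma adjusted p = 0.144, 95% interval -0.999 to -0.15). Epha1, another epithelial receptor, had the opposite sign, with 5.57, 6.31 and 6.87 in the shECAD clones and 4.98, 5.60 and 4.79 in the control clones. One shECAD clone, clone 4, lay just below the highest control clone, and the log2 fold change of 1.13 ± 0.31 (SE) had a limma adjusted p of 0.0817. Without shECAD clone 4, the clone that overlapped, Epha1 did pass the test, at 1.47 (limma adjusted p = 0.0434). It did not pass with any other clone left out (limma adjusted p from 0.0674 to 0.241), and without shECAD clone 9 it stood at 0.82. Epha3, a receptor of mesenchymal cells, read 3.82, 4.19 and 4.42 in the shECAD clones and 3.76, 3.54 and 3.71 in the control clones. Its groups were apart, at a log2 fold change of 0.47 ± 0.18 (SE, limma adjusted p = 0.2), but its control mean lay below the 25th percentile of the arrays, as did both means of Epha5 and Epha6. Epha4, a receptor for both ephrin classes, differed little in the mean (0.05 ± 0.36 SE) and widely among the control clones, with 7.48, 6.70 and 5.73 in clones 2, 3 and 4. Its shECAD values, 6.71, 6.99 and 6.36, lay inside that range. Epha7, Epha8 and Epha10 had log2 fold changes of -0.24, 0.097 and 0.11.

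The EphB receptors overlapped between the groups in all 4 measured genes, and over all genes only 23.6% were apart. Ephb6, which lacks kinase activity, read 5.14, 4.86 and 5.25 in shECAD clones 4, 8 and 9, against 4.97, 4.42 and 4.995 in control clones 2, 3 and 4. Ephb4, the receptor for Efnb2, read 6.75, 6.73 and 7.09 in the shECAD clones and 6.88, 7.24 and 7.10 in the control clones. Ephb1 read 4.69, 4.22 and 4.74 in the shECAD clones and 4.40, 4.27 and 4.34 in the control clones. None of these ranges was separate, and the log2 fold changes were 0.29 ± 0.19, -0.21 ± 0.17 and 0.21 ± 0.18 (SE), with limma adjusted p-values of 0.484, 0.555 and 0.572. Ephb3 stood at -0.06. The 95% intervals of the 4 genes reached from -0.59 for Ephb4 to 0.72 for Ephb6.

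The clones of a group did not contribute alike. shECAD clone 9 held the highest value of the 6 clones in 29 of the 52 members (55.8%), against 28.7% of all genes, and shECAD clone 8 did so in 8. Control clone 3 held the lowest value in 19 members (36.5%, against 25.7% of all genes) and control clone 4 in 15 (28.8%, against 14.3%). The median deviation of the members from their control means was 0.16, 0.11 and 0.36 in shECAD clones 4, 8 and 9 and 0.067, -0.061 and -0.0068 in control clones 2, 3 and 4. Without control clone 2, limma called 3 members (Efna5, Nrp1 and Sema6d, 5.77%), against 2.72% of all genes. Without shECAD clone 4 it called 3 (Epha1, Nrp2 and Sema6a, 5.77%), against 1.16% of all genes. Sema6a alone was called without control clone 3 (1.92%, against 1.36% of all genes). Sema3e alone was called without shECAD clone 8 (1.92%, against 0.782% of all genes). Without control clone 4 or without shECAD clone 9 limma called 0, against 0.732% and 1.45% of all genes. In each of these cases 17 members had an unadjusted p below 0.05, against 23 with all clones. All genes at such a p were counted only with all clones (3595 of 19938). None of the 7 calls held in all 6 of these fits. Their directions did, and the log2 fold change ran from 1.23 to 2.02 for Sema6a, from 1.06 to 1.53 for Sema3e, from 1.002 to 1.58 for Nrp1, from 0.65 to 0.995 for Nrp2, from 0.73 to 0.91 for Efna5, from 0.66 to 0.82 for Efnb1 and from -0.82 to -0.72 for Sema5b.

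**Figure D3:**
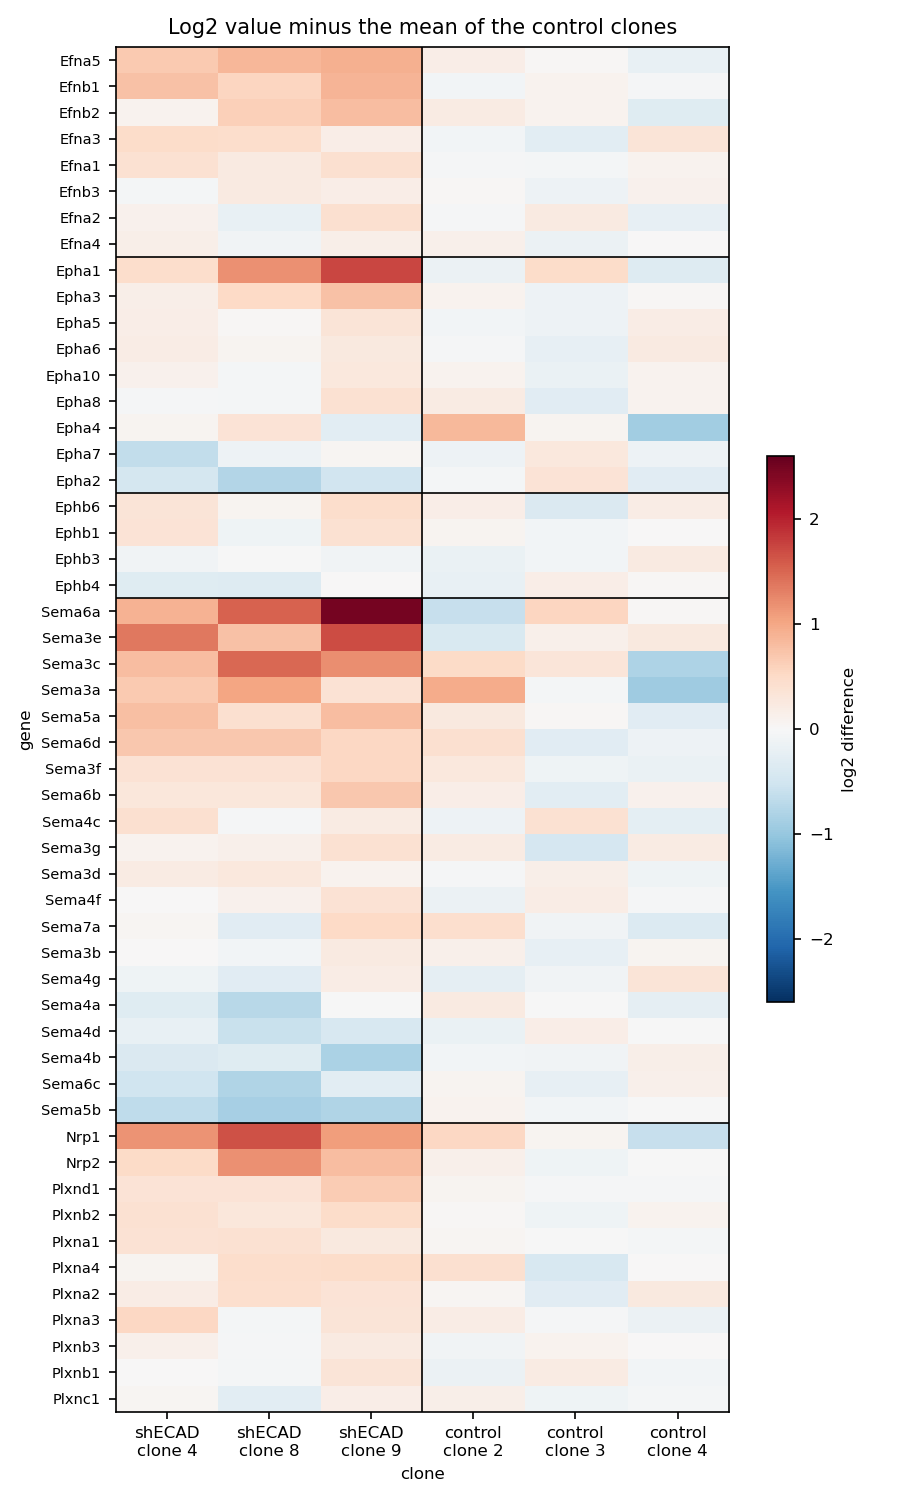
Log2 value of each of the 52 genes (rows) in each clone (columns) minus the gene's mean over the control clones, red above and blue below it. The darkest cell is Sema6a in shECAD clone 9, the Sema5b row is blue in the 3 shECAD clones, and Epha4 and Sema3a differ mainly among the control clones.

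The fibroblast and feeder markers moved with the groups, at a mean log2 level of 7.17 to 7.47 in the shECAD clones and 5.46 to 6.51 in the control clones, where clone 2 was highest and clone 4 lowest. Nrp1, Sema3c, Sema3a and Epha4 were among the members in which the control clones had that same order, as were Efna5, Efnb2, Sema5a and Plxna1. Sema3f, Plxna3, Sema7a and Sema4a had it too, with log2 fold changes of 0.43, 0.28, 0.09 and -0.35. The share of all genes with that order was not counted. The list mean differed less among the shECAD clones (7.17, 7.47 and 7.18), so in the fit below its slope came mainly from the control clones. The order of the control clones and a drop in that fit are therefore not separate observations. With the mean of this list as a covariate, limma called 0 of the 52 members and 0 of all genes, and SE values had a median of 0.401 over all genes. An unadjusted p below 0.05 was found in 6 members, and all genes at such a p were not counted. In that fit the log2 fold change of Nrp1 was -0.13 ± 0.36 (SE) and that of Sema3c -0.48 ± 0.41, against 1.31 and 1.17 without the covariate. Sema3a and Epha4 stood at -1.47 ± 0.39 and -2.0 ± 0.37 (limma adjusted p = 0.999 and 0.646). Sema3e and Sema6a stood at 2.23 ± 0.47 and 2.23 ± 0.82 (limma adjusted p = 0.672 and 0.999), Efnb1 at 0.85 ± 0.37 and Sema5b at -0.81 ± 0.36. Each of these was as large as without the covariate or larger. Efna5 and Nrp2 kept smaller values, 0.41 ± 0.36 and 0.50 ± 0.43. The covariate lies apart between the groups, so this fit separates it poorly from the group. Cdh1, the target of the shRNA, lost its call in it too (limma adjusted p = 0.999). The part of the fibroblast and feeder markers in the changes was not tested.

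**Figure D4:**
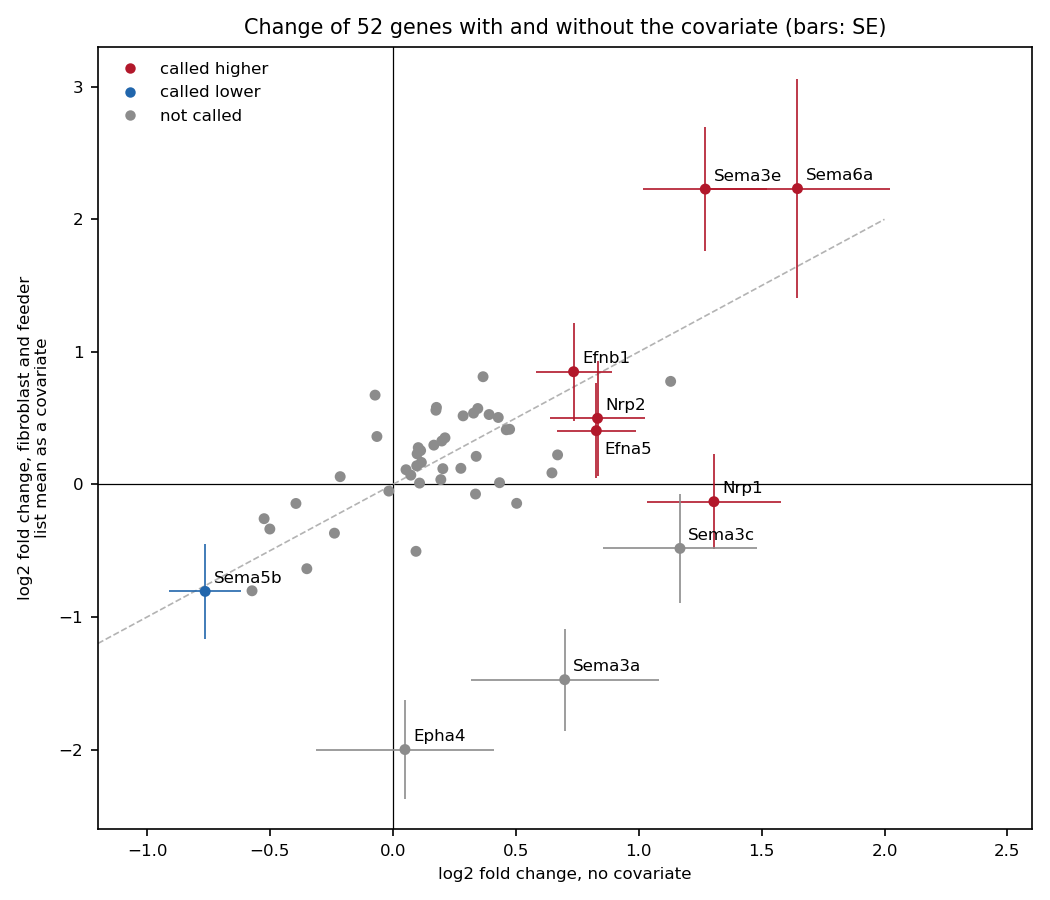
Log2 fold change of the 52 genes (shECAD minus control) without a covariate (horizontal axis) and with the fibroblast and feeder marker mean as a covariate (vertical axis); bars on the labelled genes are SE and the dashed line marks equal values. Sema3e, Sema6a, Efnb1 and Sema5b lie near or beyond the line, and Nrp1, Sema3c, Sema3a and Epha4 lie below it, with negative values on the vertical axis.

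Genes that act with these receptors gave further calls. Among 46 measured partners of semaphorin signalling, 6 rose and 0 fell (13%, against 3.12% of all genes), with a median log2 fold change of 0.19, which median centring moved to 0.10. Mical2, an actin-oxidising enzyme of a family that acts below plexins, read 6.13, 6.44 and 6.14 in shECAD clones 4, 8 and 9, against 5.50, 4.88 and 4.90 in control clones 2, 3 and 4, a 2.21-fold rise (1.15 ± 0.20 SE, limma adjusted p = 0.0179). The others were Dpysl3, a collapsin response mediator (2-fold), Nrcam, a neuropilin-associated adhesion molecule (1.96-fold), the integrin gene Itgb1, whose product is a receptor subunit for Sema7a (1.92-fold), Met, a receptor kinase that pairs with plexin-B (1.74-fold), and Farp1, an exchange factor for small GTPases (1.68-fold), with limma adjusted p-values of 0.0337, 0.0312, 0.0143, 0.0308 and 0.0302. These 6 genes had positive log2 fold changes with any clone left out, from 0.69 (Farp1) to 1.35 (Mical2), but each lost its call without control clone 4, with adjusted p-values over all left-out clones of up to 0.135.

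Partners of Eph signalling had 1 of 42 called higher and 1 lower (4.76%, against 3.12% of all genes). Their median log2 fold change was -0.017 (-0.10 with median centring and 0.033 with quantile normalization). The groups were apart in 35.7% of them (6 higher and 9 lower), against 23.6% of all genes. Cav1, a caveolin gene, rose 2.52-fold (limma adjusted p = 0.0287). Chn1, whose product chimaerin carries the Epha4 signal to Rac, read 5.31, 5.61 and 5.62 in shECAD clones 4, 8 and 9, against 5.96, 6.51 and 6.44 in control clones 2, 3 and 4. Its groups were apart, and limma put the log2 fold change at -0.79 (adjusted p = 0.0497). Both lost their calls in 5 of the 6 fits with 1 clone left out, all but the one without control clone 2. Of 33 other guidance ligands and receptors, 2 rose and 0 fell (6.06%, against 3.12% of all genes). Adgrl2, the latrophilin 2 gene, rose 2.73-fold (1.45 ± 0.19 SE, limma adjusted p = 0.007) and was called with any clone left out. Slit3, a ligand of Robo receptors, rose 2.02-fold (limma adjusted p = 0.0465) and was called in 1 of those 6 fits, the one without control clone 2. Slit3 also lost its call after quantile normalization. Like every called gene of these lists, both lost their calls without variance moderation and with the covariate. Of 8 vascular growth factors and receptors that share neuropilins, 0 were called and 4 had an unadjusted p below 0.05, as did 3595 of all 19938 genes. The largest log2 fold changes were 1.001 for Flt1, -0.71 for Vegfc and 0.70 for Kdr (limma adjusted p = 0.068, 0.0704 and 0.0802).

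Cell types that carry many guidance genes were checked through their markers. Over all genes 3.12% were called. Of 8 endothelial markers 0 were called, and their mean log2 level was 4.81 to 4.91 in the shECAD clones and 4.74 to 5.07 in the control clones. Of 9 neural markers 1 rose, Nes, which encodes the intermediate filament nestin (2.34-fold, limma adjusted p = 0.0302, up to 0.0992 without 1 clone), and the mean level was 5.98 to 6.03 in the shECAD clones and 5.72 to 5.98 in the control clones. Of 10 extraembryonic endoderm markers 1 rose, the basement membrane collagen gene Col4a1 (1.75-fold, limma adjusted p = 0.0467, up to 0.168 without 1 clone), at mean levels of 6.09 to 6.29 in the shECAD clones and 5.57 to 6.05 in the control clones. Of these 10 markers, 9 had a positive log2 fold change, and 5 had an unadjusted limma p below 0.05. The groups were apart in 40% of them, against 23.6% of all genes. Their median log2 fold change was 0.42, against -0.014 for the endothelial and 0.046 for the neural markers. The part of these cell types in the guidance gene changes was not tested.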

How the data were processed

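The authors deposited 1 log2 value per probeset and array. RMA and Partek are the tools listed in the submitters' processing notes, and for their settings, as for the genome build, the sources used here give nothing. The values were used as deposited, with no filter on dim probesets. Of 28853 probesets, 21789 carried 1 gene symbol in the platform annotation, and the one with the highest mean stood for a gene, which left 19938 genes. The members and lists were chosen with earlier results of these data known, so no set test was run.

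The 3 shECAD and 3 control clones were compared with limma 3.58.1 (lmFit, then eBayes with its default prior; R 4.3.3), without covariates. P-values were Benjamini-Hochberg adjusted over all genes, and a call is an adjusted p below 0.05. The fit was tested on simulated data with 50 changed genes of each size. It called 10% of the changes of 0.5 on the log2 scale, 82% of those of 1 and 100% of those of 1.5 and 2, with 11 false calls. Full values are given for called members and for the 3 members of each role group with the largest absolute change; Sema3a, Sema4b, Sema4d, Sema5a and Epha4 were added after their values were seen. From each gene list up to 5 called genes are named by size, or else the 3 largest changes (Farp1 was added as the last of 6). Other scalings, probeset rules, variance priors, array weights, a covariate and each clone left out were tried as alternatives. Figures were drawn with matplotlib 3.10.9.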

Additional observations from a re-analysis of the deposited data

How the results depend on the processing

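The 6 higher and 1 lower calls became 4 and 1 under median centring and under quantile normalization, 5 and 1 among brighter genes alone (29 members) and with a robust, intensity-trended prior, 6 and 1 with probeset means, 8 and 1 with array weights (Sema3c, at 1.33 and an adjusted p of 0.0434, and Sema5a were added), 9 and 1 at an adjusted p of 0.1, and 4 and 1 with every probeset on its own. They became 0 and 0 without variance moderation (16 members at an unadjusted p below 0.05) and with the fibroblast and feeder mean as a covariate (6 members). All genes at such a p were not counted in these fits, so the member counts have no background. With 1 clone left out, 0 to 3 members were called higher and 0 lower. Over all genes 623 calls became 3 without moderation, 1067 with array weights, 0 with the covariate and 146 to 543 with 1 clone left out. Efnb1 and Nrp2 lost their calls after median centring (adjusted p = 0.0501 and 0.0636), Nrp2 and Sema6a after quantile normalization (0.0679 and 0.0709), and Sema6a under the intensity trend (0.0702). The members' median log2 fold change, 0.20, was 0.19 to 0.31 with 1 clone left out (highest without control clone 2), 0.11 with median centring and 0.12 with quantile normalization. The sign held in 49 of 52 members after each scaling: Epha4, Efna4 and Sema3b turned after median centring, and Epha8, Plxnb3 and Sema3b after quantile normalization. Cdh1 ran from -2.45 to -1.92 with 1 clone left out and kept its call there, and it lost it without moderation (-2.13, adjusted p = 0.194) and with the covariate (-2.19, adjusted p = 0.999). With the covariate 42 of 52 members kept their sign, and Nrp1 (-0.13), Sema3c (-0.48), Sema3a (-1.47), Epha4 (-2.0), Efnb2 (-0.14) and Ephb4 (0.059) were among those that turned. The cause of these differences was not tested. No paired analysis was possible because the groups share only the clone number 4, which names a line. No detection calls were used, so Epha5, Epha6 and Sema3d, below the 25th percentile in both groups, carry little information.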
